A study of Mus musculus with 9 samples.

Results

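The collagen genes other than those of the hemidesmosome were the rows of the gene table whose Ensembl identifiers belong to protein-coding genes named Col, a number, a and a number, leaving out Col7a1 and Col17a1. They were 42 of 49672 rows: 11 fibrillar, 8 basement membrane and 23 other collagens. The data are total RNA sequencing of cells sorted by fluorescence from the epidermis of newborn (postnatal day 0) mice of the Sox2-GFP reporter strain. The 3 Merkel libraries came from GFP-positive cells, labelled as Merkel cells, which are epidermal cells that sense touch. The 6 basal libraries were made from GFP-negative cells that carried SCA1 and CD49F on their surface, labelled as basal keratinocytes, the progenitor layer that rests on the epidermal basement membrane. Each of the sample numbers 1, 2 and 3 had a Merkel library, a second basal library and a first basal library, and the labels do not say how the second and the first differ. All groups share the reporter allele, and whether a sample number is 1 animal or a pool of animals is not stated. For that reason the p-values reflect the spread over 3 sample numbers, and some of this spread may be technical.

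Collagens are matrix proteins built from chains that wind around each other in a helix. Fibrillar collagens assemble into the cross-banded fibrils that give dermis its strength and are classically made by fibroblasts. Type IV collagen forms the sheet-like network of basement membranes, which epidermal cells secrete together with laminins, and further collagens coat fibrils, form beaded filaments or span the cell membrane.

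Levels are given in TPM, a transcript abundance relative to the library total, which is scaled for gene length. Tests were made with limma on log2(TPM + 1), with the 2 basal libraries of a number averaged on that scale, so that 3 Merkel values were set against 3 basal values. A gene was tested if at least 3 of these 6 values reached 1 TPM. It was called higher or lower in Merkel libraries at a Benjamini-Hochberg adjusted p under 0.05 over all tested genes and a log2 difference of 1 or more in size. On this scale the difference of genes near 0 TPM is understated. Means are given ± SD over 3 values, for which the TPM of the 2 basal libraries of each number were averaged, and log2 differences ± SE.

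The RefSeq promoter windows of 4 genes are shown. Their transcripts had the largest differences in size among called collagen genes with a window, the 250 bases before the RefSeq start, that holds no annotated exon. Col26a1, with a difference of 2.49, had no window available. Col6a2 had another window, at chr10:76623405-76623654, which holds an exon and is not shown. The windows shown come from build GRCm38.p6 and read along the strand of the gene. The window of Col6a3 lies at chr1:90843972-90844221 on the minus strand, that of Col3a1 at chr1:45311288-45311537 on the plus strand, that of Col15a1 at chr4:47207762-47208011 on the plus strand and that of Col6a2 at chr10:76623631-76623880 on the minus strand. Capitals mark matches to TATAAA in Col3a1 and to GGGCGG in Col6a2, which lies on the opposite strand and so reads CCGCCC.
Col6a3: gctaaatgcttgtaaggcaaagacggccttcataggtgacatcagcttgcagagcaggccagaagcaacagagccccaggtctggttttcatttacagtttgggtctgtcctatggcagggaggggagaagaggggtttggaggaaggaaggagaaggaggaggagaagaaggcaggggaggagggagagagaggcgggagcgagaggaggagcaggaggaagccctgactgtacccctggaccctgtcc
Col3a1: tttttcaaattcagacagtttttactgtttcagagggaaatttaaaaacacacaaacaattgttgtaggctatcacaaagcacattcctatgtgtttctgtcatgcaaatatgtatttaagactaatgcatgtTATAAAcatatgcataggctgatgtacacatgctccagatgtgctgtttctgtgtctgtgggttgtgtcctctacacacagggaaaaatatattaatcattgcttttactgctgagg
Col15a1: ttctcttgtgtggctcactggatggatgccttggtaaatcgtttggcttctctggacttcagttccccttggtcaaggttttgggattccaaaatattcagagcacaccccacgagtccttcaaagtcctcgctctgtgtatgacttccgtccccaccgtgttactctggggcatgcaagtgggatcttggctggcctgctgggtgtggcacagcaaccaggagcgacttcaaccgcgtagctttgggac
Col6a2: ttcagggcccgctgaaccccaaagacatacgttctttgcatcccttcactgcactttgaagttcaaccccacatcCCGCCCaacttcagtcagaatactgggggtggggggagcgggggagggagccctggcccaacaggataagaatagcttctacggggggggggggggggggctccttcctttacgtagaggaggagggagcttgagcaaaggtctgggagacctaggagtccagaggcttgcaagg
Windows of this length were available for 33 of the 42 collagen genes, 36 windows in all. They were searched on both strands for the letters of the CCAAT box (CCAAT), of the TATA box (TATAAA) and of the GC box (GGGCGG). The CCAAT box was present in 30.6% of the collagen windows and in 33.8% of all 32851 windows in the table. The TATA box was present in 11.1% of the collagen windows and in 12.4% of all windows. The GC box was present in 58.3% of the collagen windows and in 32.7% of all windows, and the Col6a3 and Col15a1 windows held none of the 3. These are matches of letters in a window and were not tested.

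Between 13012 and 13575 rows reached 1 TPM in Merkel libraries, 13043 to 13296 in second basal and 13098 to 13649 in first basal libraries. Small and structural RNAs made up 39.6% to 50.6% of the Merkel totals and 36.2% to 42.8% of the basal totals, and TPM keeps no read depth. The 9 Merkel cell markers summed to 872 to 1161 TPM in Merkel libraries and 2.37 to 5.96 TPM in basal libraries, with Krt8 the most abundant. The 6 basal keratinocyte markers, led by Krt14, summed to 4539 to 5076 TPM in Merkel libraries and 12826 to 17317 TPM in basal libraries, so that keratinocyte transcripts were not absent from the Merkel libraries. In such bulk libraries, fewer cells of a type and less RNA per cell cannot be told apart.

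Merkel libraries carried a different mixture of collagen transcripts from basal libraries rather than a clearly different total. The 42 genes together summed to 374 to 492 TPM in Merkel libraries, 469 to 582 TPM in second basal and 367 to 425 TPM in first basal libraries, so the groups overlapped. Fibrillar collagens summed to 91.7 to 120 TPM in Merkel libraries, against 38.7 to 60.2 TPM in second and 22.5 to 36.4 TPM in first basal libraries. They made up 22.2% to 24.5% of collagen TPM in Merkel libraries, against 8.27% to 10.3% in second and 6.12% to 8.55% in first basal libraries, without overlap. Basement membrane collagens summed to 142 to 190 TPM in Merkel libraries, against 262 to 352 TPM in second and 189 to 235 TPM in first basal libraries. Their share was 37.9% to 39.0% of collagen TPM in Merkel libraries, against 55.8% to 60.4% in second and 51.4% to 55.2% in first basal libraries. The other collagens overlapped, at 141 to 181 TPM in Merkel libraries, 166 to 170 TPM in second and 154 to 166 TPM in first basal libraries. For comparison, the hemidesmosomal genes Col7a1 and Col17a1 together summed to 140 to 184 TPM in Merkel libraries, against 578 to 644 TPM in second and 555 to 691 TPM in first basal libraries.

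**Figure D1:**
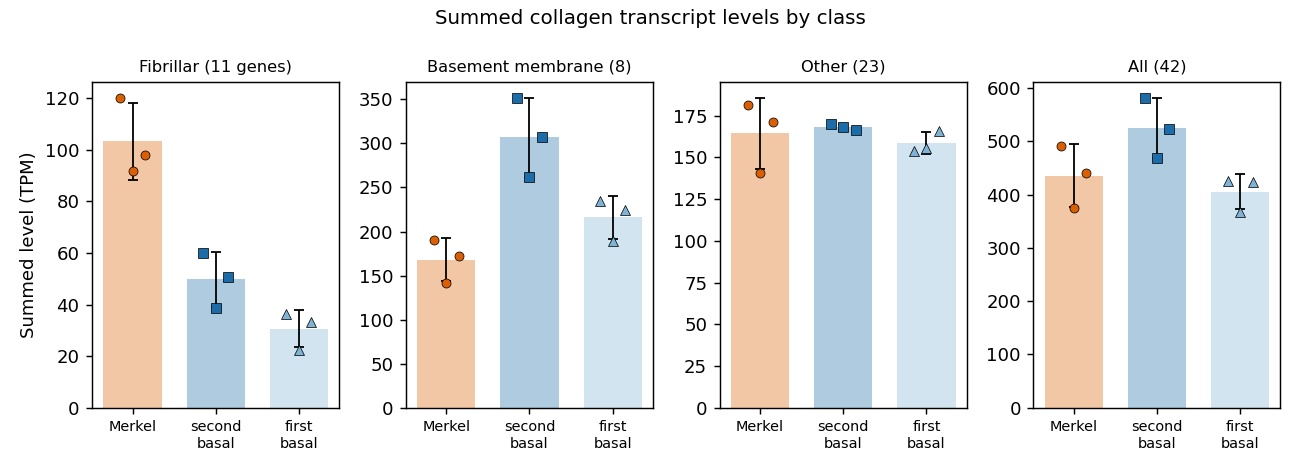
Summed levels of collagen genes (TPM) by class in Merkel, second basal and first basal libraries; bars are means, error bars SD over 3 libraries and symbols single libraries. Fibrillar sums lay at 91.7 to 120 TPM in Merkel libraries, above all basal libraries, while the sums of all 42 genes overlapped.

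Of the 42 genes, 26 were tested. Of those 13 were called higher in Merkel libraries, which is 50.0% of the members tested and compares with 6.79% of all 13822 genes tested. Another 4, or 15.4%, were called lower, against 5.27% of all genes. That makes 17 called genes, where 12.1% of all genes were called, and 9 tested genes were not called. Under median-ratio scaling of the libraries 13 collagen genes were higher and 2 lower, and of all genes 1098 were higher and 419 lower, against 938 and 729 on the deposited scale. The filter bears on the first count: 6 of the 13 higher genes had no basal value at 1 TPM and so entered the test only because all Merkel values did. The other 7 had at least 1 basal value at 1 TPM. All Merkel libraries lay above all basal libraries for 13 tested collagens, against 11.7% of all genes, and below them for 5, against 26.2% of all genes. The median log2 difference of the 26 tested genes was 0.92, and that of all tested genes was -0.15. Against the second basal libraries alone 12 collagen genes were called higher (6.46% of all genes) and 3 lower (5.11%), in either direction 15 (11.6%), and against the first alone 12 were higher (7.46%) and 4 lower (6.68%), together 16 (14.1%). Of the 13 higher genes 11 were called against each set of basal libraries alone, as were 3 of the 4 lower ones. These comparisons share the Merkel libraries.

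**Figure D2:**
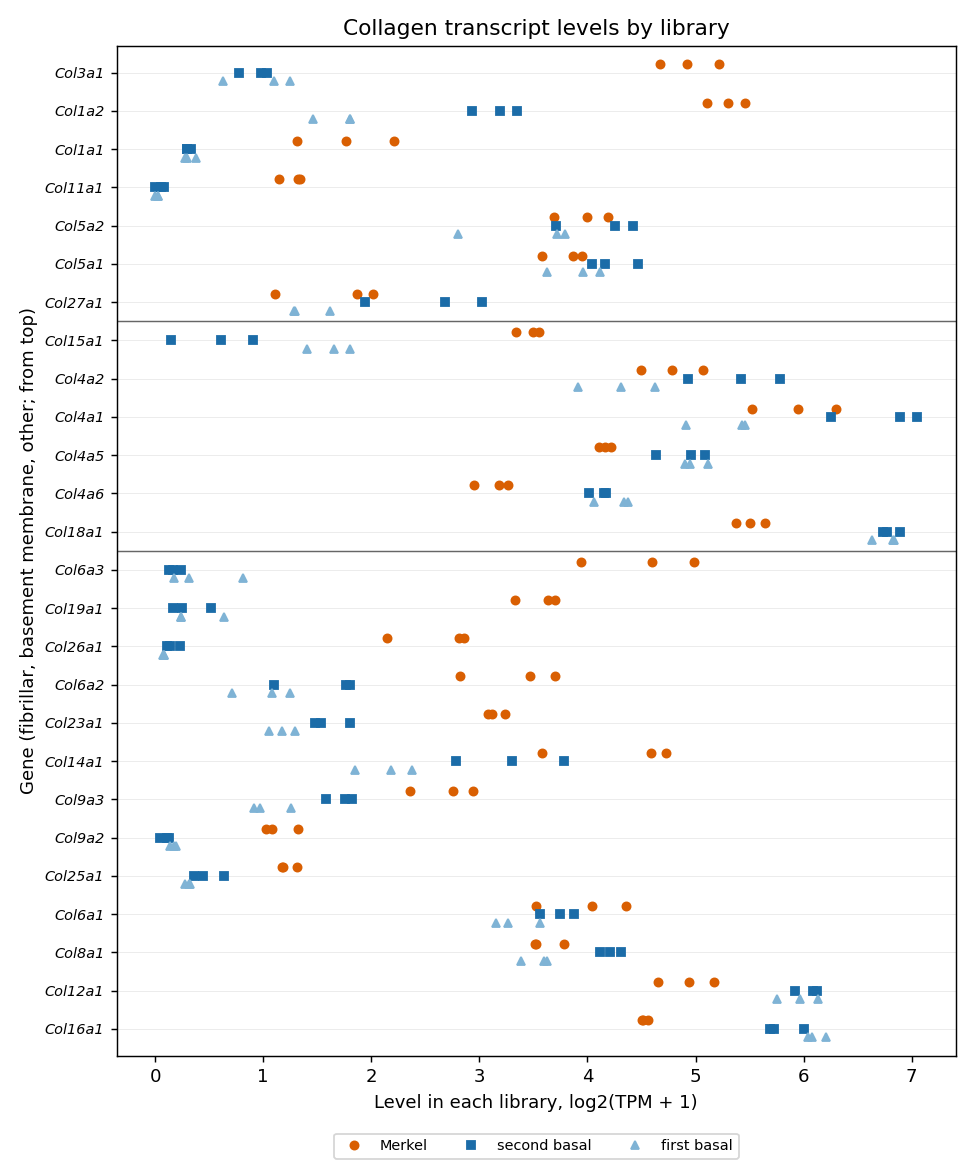
Level of each tested collagen gene in each library, as log2(TPM + 1), with fibrillar genes at the top, basement membrane genes in the middle and the others below; circles are Merkel, squares second basal and triangles first basal libraries. Merkel libraries stand to the right of all basal libraries for 13 genes and to the left of them for 5.

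Among the 11 fibrillar collagens, 7 were tested and 4 were called higher in Merkel libraries, against 6.79% of all genes, with a median difference of 1.24. These were Col3a1, Col1a2, Col1a1 and Col11a1. Col1a1 and Col11a1 had no basal value at 1 TPM and were tested only through their Merkel values. Col3a1, the chain of type III collagen, which is plentiful in young skin, is at chr1:45311538-45349706 (mm10). It was measured at 36.1, 29.2 and 24.4 TPM in Merkel libraries 1 to 3, against 1.05, 0.97 and 0.71 TPM in second and 1.37, 0.55 and 1.14 TPM in first basal libraries. Every Merkel library stood far above every basal library. The means were 29.9 ± 5.87 TPM in Merkel and 0.965 ± 0.228 TPM in basal libraries (SD, n = 3 each), a log2 difference of 3.97 ± 0.17 (limma, adjusted p = 5.3e-07).

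Both chains of type I collagen, the main fibril protein of dermis, were higher in Merkel libraries, at very different levels. Col1a2, at chr6:4504814-4541544, gave 42.9, 33.5 and 38.5 TPM in Merkel libraries, against 9.20, 6.63 and 8.13 TPM in second and 2.50, 1.75 and 2.49 TPM in first basal libraries. The groups did not overlap, and within the basal libraries the second ones stood above the first. The log2 difference was 2.87 ± 0.15 over both sets (limma, adjusted p = 1.7e-06), 2.13 against the second and 3.6 against the first basal libraries. Col1a1, at chr11:94936224-94953042, gave 3.62, 2.41 and 1.49 TPM in Merkel libraries, against 0.26, 0.23 and 0.23 TPM in second and 0.23, 0.21 and 0.30 TPM in first basal libraries. It too was above in every Merkel library, by 1.45 ± 0.21 on the log2 scale (limma, adjusted p = 7.0e-04). The ratio of Col1a2 to Col1a1 in TPM was 11.8 to 25.8 in Merkel libraries, 28.8 to 35.4 in second and 8.30 to 10.9 in first basal libraries. The chain that is incorporated in the larger number per type I molecule was thus the lower transcript in all 9 libraries.

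Col11a1, a chain of type XI collagen that is best known from cartilage fibrils, gave 1.22, 1.5 and 1.53 TPM in Merkel libraries, against 0.04, 0 and 0.06 TPM in second and 0.02, 0 and 0.02 TPM in first basal libraries. Its difference was 1.24 ± 0.12 (limma, adjusted p = 7.9e-05), at levels just above the filter, which it passed through the Merkel values alone. The 5 cartilage markers summed to 0.42 to 0.65 TPM in Merkel libraries and 0.12 to 1.89 TPM in basal libraries. Comp, the most abundant, gave 0.32 to 0.54 TPM in Merkel and 0.09 to 1.86 TPM in basal libraries. Matn1 was listed at 0 in all basal libraries and at no more than 0.02 TPM in Merkel libraries.

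The type V chains, which help to start fibrils and set their width, were not called. Col5a1 averaged 13.0 ± 1.79 TPM in Merkel and 16.0 ± 2.68 TPM in basal libraries (log2 difference -0.26, limma adjusted p = 0.22). Col5a2 averaged 14.7 ± 2.69 TPM in Merkel and 13.6 ± 4.05 TPM in basal libraries (0.18, limma adjusted p = 0.58). Col5a1 exceeded Col5a2 in 5 of the 6 basal libraries and in none of the Merkel libraries, the ratio being 0.833 to 0.922 in Merkel, 0.932 to 1.28 in second and 1.19 to 1.90 in first basal libraries. Col5a2 is the neighbour of Col3a1 on chromosome 1, 24614 bases away and on the opposite strand, and its groups overlapped where those of Col3a1 did not. Col27a1, a long fibrillar chain of cartilage and epithelia, averaged 2.28 ± 0.992 TPM in Merkel and 3.39 ± 1.22 TPM in basal libraries and was not called (-0.31, limma adjusted p = 0.38). The 4 fibrillar genes below the filter were Col2a1, Col5a3, Col11a2 and Col24a1, at no more than 1.16 TPM in any library. Of these Col5a3 and Col24a1 were above in every Merkel library, at 0.36 to 0.41 TPM and 0.10 to 0.23 TPM, against at most 0.05 and 0.06 TPM in basal libraries.

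Transcripts of mesenchymal cells differed between the same libraries. All 8 dermal papilla markers, genes of the mesenchymal signalling centre under hair follicles, were above in every Merkel library, summing to 49.9 to 54.9 TPM in Merkel and 0.50 to 1.36 TPM in basal libraries, where 11.7% of all tested genes were above in every Merkel library. Of the 8 markers 6 were tested, and these 6 were called higher, against 6.79% of all genes. All 8 were under 1 TPM in every basal library, so these 6 were tested only through their Merkel values. Rspo3, the most abundant, gave 13.0 to 15.7 TPM in Merkel libraries and 0.03 to 0.18 TPM in basal libraries. Of 10 fibroblast markers 7 were above in every Merkel library, but the summed level overlapped, at 216 to 367 TPM in Merkel and 255 to 900 TPM in basal libraries, most of it from Vim and Dcn. Vim went the other way, at 148 ± 36.2 TPM in Merkel and 340 ± 102 TPM in basal libraries (-0.74, limma adjusted p = 0.019), under the size limit. Against the first basal libraries alone Vim was called lower (-1.87), and against the second it was not called (0.39). Dcn was not called (0.35, limma adjusted p = 0.48). The 7 include markers under 1 TPM in every library. Of the 10 markers 6 were tested and 4 were called higher, against 6.79% of all genes. The 4, Pdgfra, Twist1, Prrx1 and Dlk1, were under 1 TPM in every basal library and were tested only through their Merkel values. The fibroblast receptor gene Pdgfra gave 5.15 to 7.14 TPM in Merkel libraries and 0.01 to 0.17 TPM in basal libraries, and Twist2 and Mfap5 were listed at 0 in all basal libraries. Of 7 mural cell markers 5 were above in every Merkel library, but these include markers under 1 TPM in every library. Only 3 of the 7 were tested, and 1 was called higher, against 6.79% of all genes. This was Rgs5, at 1.41 to 3.07 TPM in Merkel and at most 0.16 TPM in basal libraries (1.69 ± 0.20, limma adjusted p = 2.5e-04). It too was tested only through its Merkel values. The summed level of the 7 markers, most of it from Cspg4, which overlapped, was 15.1 to 18.1 TPM in Merkel and 8.20 to 17.7 TPM in basal libraries. Of 6 markers each of endothelium, Schwann cells and melanocytes 1, 1 and 3 were above in every Merkel library, and of 5 macrophage markers 0, against 11.7% of all tested genes. All 6 melanocyte markers were tested and 5 were called higher, as was 1 of 4 tested Schwann cell markers, against 6.79% of all genes. The 1 tested endothelial marker was not called. All 5 macrophage markers were tested and 4 were called lower, against 5.27% of all genes. Against the second basal libraries alone, 0 melanocyte and 0 macrophage markers were called. Endothelial markers, led by Pecam1, summed to 1.78 to 3.98 TPM in Merkel and 0.49 to 1.69 TPM in basal libraries. Melanocyte markers, led by Dct, summed to 150 to 211 TPM in Merkel and 15.8 to 152 TPM in basal libraries, and Schwann cell markers, led by Mbp, to 12.9 to 19.9 TPM in Merkel and 9.0 to 17.8 TPM in basal libraries. Macrophage markers summed to 12.0 to 35.5 TPM in Merkel and 14.4 to 375 TPM in basal libraries. The part of these cells in the fibrillar and type VI collagen differences was not tested.

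The basement membrane collagens showed no common direction: of 6 tested genes 1 was called higher in Merkel libraries (6.79% of all genes), 2 were lower (5.27% of all genes) and 3 were not called, with a median difference of -0.42. Col18a1, at chr10:77052178-77166548, encodes the heparan sulfate proteoglycan collagen whose end fragment is endostatin. It gave 44.4, 40.4 and 49.0 TPM in Merkel libraries, against 118, 105 and 108 TPM in second and 112, 98.2 and 113 TPM in first basal libraries. Every Merkel library was below every basal library, and the second and first basal libraries overlapped. The means were 44.6 ± 4.32 TPM in Merkel and 109 ± 6.72 TPM in basal libraries, a log2 difference of -1.27 ± 0.12 (limma, adjusted p = 6.4e-05). Col15a1, at chr4:47208161-47313167, encodes the closest relative of Col18a1, a collagen known from the basement membranes of vessels, muscle and nerve, and it went the other way. It gave 9.15, 10.7 and 10.3 TPM in Merkel libraries, against 0.53, 0.87 and 0.11 TPM in second and 2.48, 1.65 and 2.14 TPM in first basal libraries. The groups did not overlap, and the difference was 2.38 ± 0.14 (limma, adjusted p = 3.3e-06), being 2.91 against the second and 1.85 against the first basal libraries.

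The type IV chains fell into pairs that lie head to head in the genome. Col4a1 and Col4a2, the chains of nearly all basement membranes, start 21 bases apart on chromosome 8 and their annotated exons overlap by 22 bases on opposite strands. Col4a1 gave 78.0, 45.0 and 60.9 TPM in Merkel libraries, against 132, 75.3 and 118 TPM in second and 42.8, 29.0 and 42.01 TPM in first basal libraries. Col4a2 gave 32.7, 21.5 and 26.5 TPM in Merkel libraries, against 54.2, 29.5 and 41.8 TPM in second and 23.7, 14.0 and 18.9 TPM in first basal libraries. For each sample number the Merkel library lay between the second and the first basal library for both genes. Neither was called against the averaged basal values, with differences of -0.07 ± 0.23 for Col4a1 (limma, adjusted p = 0.83) and -0.05 ± 0.22 for Col4a2 (limma, adjusted p = 0.88). The sign turned with the basal library: -0.81 against the second and 0.66 against the first for Col4a1, and -0.60 and 0.50 for Col4a2. It turned positive also under median-ratio scaling, at 0.15 for Col4a1 and 0.17 for Col4a2. The ratio of Col4a1 to Col4a2 was 2.09 to 2.39 in Merkel, 2.43 to 2.81 in second and 1.81 to 2.22 in first basal libraries. It was higher in every second basal library than in any Merkel or first basal library, while the ranges of Merkel and first basal libraries overlapped.

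Col4a5 and Col4a6, the chains of epithelial basement membranes such as that under the epidermis, are a pair on chromosome X whose starts are 1309 bases apart. Both were below in every Merkel library, as were 26.2% of all tested genes. Col4a6 gave 8.10, 6.71 and 8.62 TPM in Merkel libraries, against 16.8, 17.1 and 15.2 TPM in second and 19.7, 15.7 and 19.2 TPM in first basal libraries. Its difference of -1.05 ± 0.13 was called (limma, adjusted p = 3.0e-04), but missed the size limit at -0.98 against the second basal libraries alone, -0.85 under median-ratio scaling, -0.91 under quantile normalization and -0.96 without Merkel library 2. Col4a5 gave 17.6, 17.0 and 16.3 TPM in Merkel libraries, against 30.1, 33.1 and 23.8 TPM in second and 33.6, 29.9 and 29.0 TPM in first basal libraries. Its difference of -0.78 ± 0.12 did not reach the size limit (limma, adjusted p = 0.0011). Col4a3 and Col4a4, chains known from the basement membrane of the kidney filter, are the third pair, 72 bases apart on chromosome 1, and neither passed 0.39 TPM in any library.

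**Figure D3:**
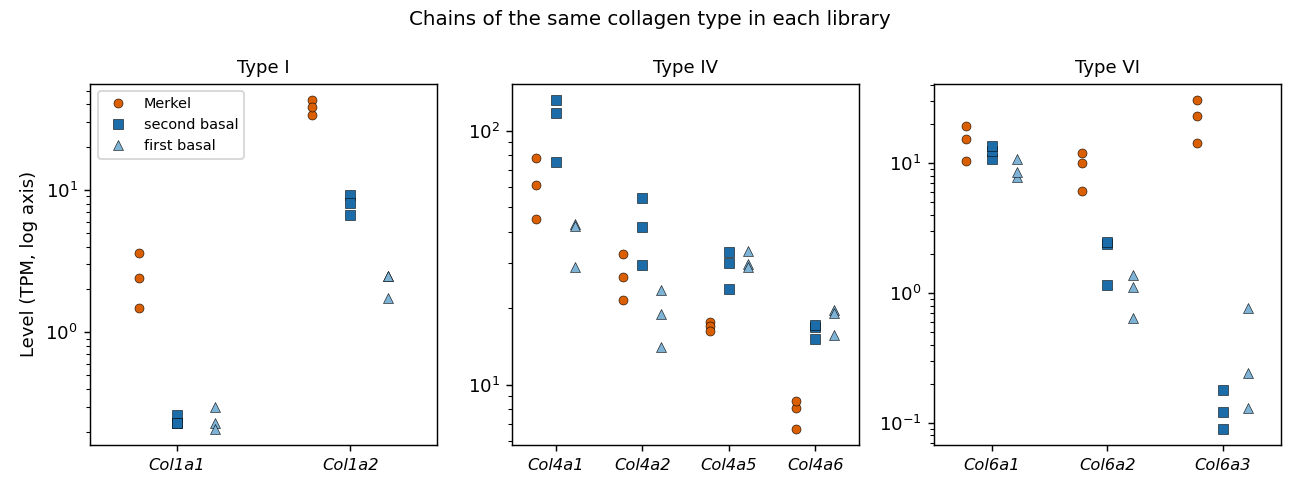
Levels (TPM, log axis) of chains of type I, type IV and type VI collagen in Merkel (circles), second basal (squares) and first basal (triangles) libraries, 1 symbol per library. Within type VI, Col6a1 overlaps between groups, while Col6a3 lies at 14.4 to 30.7 TPM in Merkel libraries and below 1 TPM in all basal libraries.

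Of the 23 other collagens 13 were tested, 8 were called higher and 2 lower in Merkel libraries, against 6.79% and 5.27% of all genes, with a median difference of 1.30. Among the higher genes Col6a3, Col19a1, Col9a2 and Col26a1 had no basal value at 1 TPM and were tested only through their Merkel values. Type VI collagen, whose chains form beaded filaments next to cells, held 2 of the higher genes. Col6a3, at chr1:90765923-90843971, gave 30.7, 14.4 and 23.3 TPM in Merkel libraries, against 0.18, 0.09 and 0.12 TPM in second and 0.76, 0.24 and 0.13 TPM in first basal libraries. The groups were far apart, and 4.21 ± 0.25 was the largest difference among the 42 collagen genes (limma, adjusted p = 3.4e-06). Col6a2, at chr10:76595762-76623630, gave 12.0, 6.06 and 10.1 TPM in Merkel libraries, against 2.4, 1.15 and 2.48 TPM in second and 1.12, 0.64 and 1.38 TPM in first basal libraries, without overlap (2.04 ± 0.25, limma adjusted p = 2.8e-04). Col6a1, which lies 85161 bases from Col6a2, was not called: it gave 19.4, 10.5 and 15.5 TPM in Merkel libraries, against 10.8, 12.4 and 13.7 TPM in second and 7.90, 8.63 and 10.8 TPM in first basal libraries (0.45 ± 0.21, limma adjusted p = 0.12). Col6a3 thus exceeded both of the chains it is assembled with in Merkel libraries and was below both in basal libraries. The ratio of Col6a3 to Col6a1 was 1.37 to 1.58 in Merkel libraries, against 0.00726 to 0.0167 in second and 0.0120 to 0.0962 in first basal libraries. The ratio of Col6a3 to Col6a2 was 2.30 to 2.57 in Merkel libraries, against 0.0484 to 0.0783 in second and 0.0942 to 0.679 in first basal libraries. The ratio of Col6a1 to Col6a2 was 1.53 to 1.73 in Merkel libraries, against 4.5 to 10.8 in second and 7.05 to 13.5 in first basal libraries. The alternative chains Col6a4, Col6a5 and Col6a6 reached at most 0.37 TPM, and Col6a5 was listed at 0 in all 9 libraries.

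Of 9 fibril-associated collagens, which bind to the surface of fibrils with interrupted helices, 6 were tested and all 6 were called, 4 higher and 2 lower in Merkel libraries, against 12.1% of all genes called in either direction. Col19a1, a rare chain of basement membrane zones, gave 11.4, 9.08 and 12.0 TPM in Merkel libraries, against 0.43, 0.12 and 0.19 TPM in second and 0.56, 0.18 and 0.18 TPM in first basal libraries. Its difference was 3.21 ± 0.16 (limma, adjusted p = 1.3e-06), and no basal value reached 1 TPM. Col14a1, a collagen of fibrils in dermis and tendon, gave 25.5, 10.97 and 22.99 TPM in Merkel libraries, against 12.7, 5.90 and 8.87 TPM in second and 3.53, 4.19 and 2.60 TPM in first basal libraries. The lowest Merkel library lay below the highest second basal library, so the groups overlapped, and the difference was 1.59 ± 0.28 (limma, adjusted p = 0.0022), at 1.01 against the second and 2.16 against the first. Col9a3, a type IX chain known from cartilage, gave 6.70, 4.13 and 5.76 TPM in Merkel libraries, against 2.37, 2.53 and 2.00 TPM in second and 0.96, 1.39 and 0.89 TPM in first basal libraries. It was called at 1.30 ± 0.17 (limma, adjusted p = 4.7e-04) but missed the size limit against the second libraries alone, at 0.97. Its exons overlap those of Tcfl5 on the opposite strand, which averaged 0.21 TPM in Merkel and 0.107 TPM in basal libraries.

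Col9a2, another type IX chain, gave 1.5, 1.11 and 1.04 TPM in Merkel libraries, against 0.09, 0.03 and 0.08 TPM in second and 0.10, 0.13 and 0.14 TPM in first basal libraries. Its difference of 1.01 ± 0.13 (limma, adjusted p = 3.7e-04) was at the size limit and missed it against the first basal libraries (0.97), under quantile normalization (0.99) and without Merkel library 1 (0.92). The lower genes were the most abundant ones of the class in every basal library, but Col14a1 exceeded Col16a1 in Merkel libraries 1 and 3 and Col12a1 in Merkel library 1. Col16a1, which connects fibrils and basement membrane at the dermal-epidermal border, gave 21.7, 22.6 and 21.9 TPM in Merkel libraries, against 51.9, 63.1 and 50.7 TPM in second and 65.0, 72.8 and 66.4 TPM in first basal libraries. Every Merkel library was below every basal library, with a difference of -1.43 ± 0.11 (limma, adjusted p = 2.3e-05). Col12a1, which bridges fibrils, gave 24.2, 35.0 and 29.7 TPM in Merkel libraries, against 68.8, 59.5 and 66.9 TPM in second and 61.6, 53.0 and 69.3 TPM in first basal libraries. It was below in every Merkel library, with a difference of -1.08 ± 0.15 (limma, adjusted p = 6.8e-04), which missed the size limit under median-ratio scaling (-0.86), quantile normalization (-0.91) and without Merkel library 1 (-0.94). The untested genes of the class were Col9a1, Col20a1 and Col22a1, at no more than 0.57 TPM.

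Among the transmembrane collagens, which sit in the cell membrane with a collagen stretch outside, Col23a1 was called. It gave 7.70, 7.48 and 8.43 TPM in Merkel libraries, against 1.78, 2.49 and 1.90 TPM in second and 1.07, 1.45 and 1.25 TPM in first basal libraries. All basal libraries were above 1 TPM, so this gene did not depend on Merkel values to be tested, and its difference was 1.76 ± 0.13 (limma, adjusted p = 1.7e-05). Col25a1, a chain first described in neurons, gave 1.49, 1.27 and 1.25 TPM in Merkel libraries, against 0.56, 0.28 and 0.36 TPM in second and 0.24, 0.25 and 0.21 TPM in first basal libraries. Its difference of 0.83 ± 0.12 was below the size limit (limma, adjusted p = 7.8e-04), and it was called with a pseudocount of 0.5 TPM (1.18) or 0.1 TPM (1.83) and when TPM were rescaled over protein-coding genes (1.23). Col13a1, a transmembrane collagen of cell adhesions and neuromuscular junctions, was not tested: 1 Merkel value, 1.36 TPM, reached 1 TPM, the others were 0.92 and 0.69 TPM, and all basal libraries were at or below 0.08 TPM. All 3 transmembrane genes, the untested Col13a1 included, were above in every Merkel library, where 11.7% of all tested genes were.

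Col26a1, which belongs to no large class, gave 6.25, 3.42 and 6.02 TPM in Merkel libraries, against 0.08, 0.17 and 0.10 TPM in second and 0.06, 0.06 and 0.05 TPM in first basal libraries. Its difference was 2.49 ± 0.19 (limma, adjusted p = 2.1e-05), without overlap. Col8a1, a short chain network collagen, averaged 11.3 ± 1.30 TPM in Merkel and 14.1 ± 1.06 TPM in basal libraries and was not called (-0.27, limma adjusted p = 0.13). Its short chain relatives were under the filter, Col8a2 above in every Merkel library at 0.36 to 0.51 TPM against 0.10 to 0.24 TPM, and Col10a1 below at 0.16 to 0.30 TPM against 0.55 to 1.11 TPM. Col10a1 shares exon bases with Nt5dc1 on the opposite strand, which averaged 9.86 TPM in Merkel and 10.4 TPM in basal libraries. Col28a1 did not pass 0.08 TPM. In all, 16 collagen genes were not tested, of which 5 were above and 1 was below in every Merkel library. No share over all untested genes was taken to compare with these counts. Apart from Col13a1, the untested genes that were above did not exceed 0.51 TPM in any library.

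**Figure D4:**
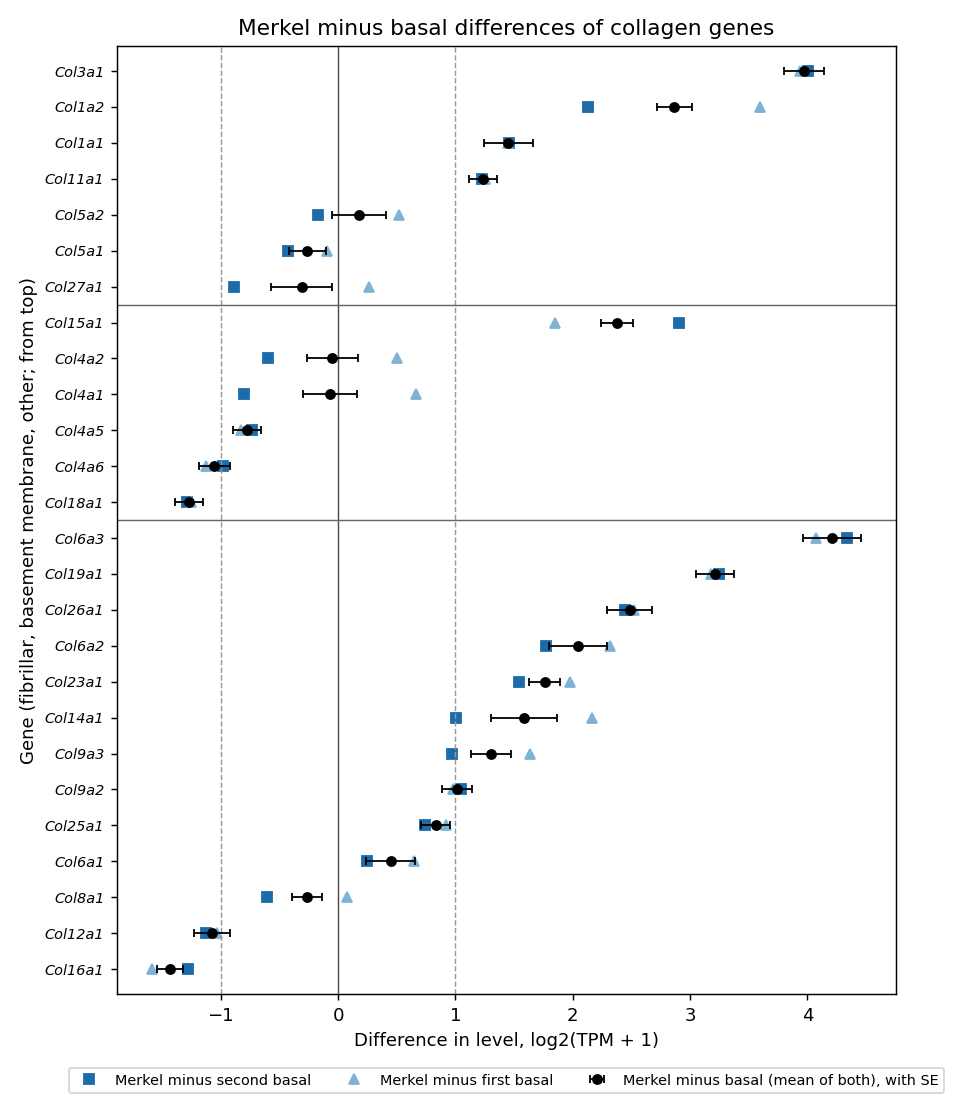
Merkel minus basal differences of the 26 tested collagen genes on the log2(TPM + 1) scale: circles with SE are against the averaged basal values, squares against the second and triangles against the first basal libraries. Dashed lines mark the size limit of 1, and the squares and triangles of Col1a2, Col4a1, Col4a2, Col14a1, Col15a1 and Col27a1 lie well apart.

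Ranked by TPM within a library, Col4a1 and Col18a1 were the leading pair of collagens in every Merkel library and every second basal library. In first basal libraries Col18a1 led, followed by Col16a1 and Col12a1. Col1a2 and Col3a1 were among the leading 5 collagens in Merkel libraries 1 and 2, and in Merkel library 3 Col1a2 stood just above and Col3a1 just below Col12a1 and Col4a2. Neither was among the leading 8 in any basal library. The 13 genes called higher together summed to 134 to 195 TPM in Merkel libraries, against 21.2 to 31.2 TPM in second and 12.4 to 14.8 TPM in first basal libraries. The 4 genes called lower summed to 98.3 to 109 TPM in Merkel libraries, against 241 to 255 TPM in second and 240 to 268 TPM in first basal libraries. These sums describe genes that were chosen by their difference.

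Genes that make, bind or break down collagen did not move as 1 group. Of 94 such partner genes in 7 lists, including the hemidesmosomal pair, 67 were tested, 14 were called higher and 12 lower in Merkel libraries, with a median difference of -0.07. Of all tested genes 6.79% were called higher and 5.27% lower, with a median of -0.15, so both counts were above the share over all genes. The filter bears on the higher count here too. Of the higher genes named below, Loxl1, Pcolce, Ddr2, Ctsk and Lama2 had no basal value at 1 TPM and were tested only through their Merkel values. In collagen modification and folding 16 of 18 genes were tested, and 14 of them were not called. Plod2, a lysyl hydroxylase that acts on the ends of fibrillar chains, was higher at 10.9 ± 1.98 TPM in Merkel and 2.65 ± 0.458 TPM in basal libraries (1.78 ± 0.17, limma adjusted p = 7.1e-05). P3h2, a prolyl hydroxylase known to act on type IV chains, was lower at 4.5 ± 0.460 TPM in Merkel and 16.1 ± 0.467 TPM in basal libraries (-1.61 ± 0.12, limma adjusted p = 1.7e-05). An antisense gene overlaps P3h2 and averaged 0.947 TPM in Merkel and 3.8 TPM in basal libraries. The most abundant gene of the list, Ppib, a prolyl isomerase, averaged 272 ± 34.7 TPM in Merkel and 208 ± 14.6 TPM in basal libraries and was not called (0.38, limma adjusted p = 0.052).

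Of 15 genes of procollagen secretion, processing and crosslinking, 8 were tested, 2 were higher and 1 was lower, against 6.79% and 5.27% of all genes. Loxl1, a lysyl oxidase that crosslinks elastin and collagen, averaged 7.46 ± 1.09 TPM in Merkel and 0.015 ± 0.005 TPM in basal libraries (3.05 ± 0.14, limma adjusted p = 7.7e-07). Pcolce, which enhances removal of the end pieces of fibrillar procollagen, averaged 9.48 ± 0.746 TPM in Merkel and 0.598 ± 0.237 TPM in basal libraries (2.73 ± 0.15, limma adjusted p = 2.1e-06). Adamts14, a protease for the opposite end of procollagen, was lower at 3.79 ± 0.319 TPM in Merkel and 23.1 ± 3.31 TPM in basal libraries (-2.31 ± 0.14, limma adjusted p = 4.7e-06). Mia3, needed to export procollagen from the endoplasmic reticulum and the most abundant of the list, was not called (-0.24, limma adjusted p = 0.26). Among receptors, 7 of 11 were tested, 1 was higher and 1 was lower, against the same shares of all genes. Ddr2, a receptor kinase for fibrillar collagen, was higher at 1.83 ± 0.0833 TPM in Merkel and 0.347 ± 0.0375 TPM in basal libraries (1.07 ± 0.12, limma adjusted p = 1.5e-04). Itga2, the integrin chain that binds collagen on keratinocytes, was lower at 2.42 ± 0.0721 TPM in Merkel and 7.0 ± 0.683 TPM in basal libraries (-1.22 ± 0.13, limma adjusted p = 1.1e-04). Its partner Itgb1, the most abundant, was not called (-0.39, limma adjusted p = 0.10). Of 13 degradation genes 5 were tested and 1 was called, against 12.1% of all genes in either direction. This was the collagen-cleaving protease gene Ctsk, at 2.90 ± 0.827 TPM in Merkel and 0.190 ± 0.0180 TPM in basal libraries (1.69 ± 0.16, limma adjusted p = 7.5e-05). The most abundant, Mmp14, differed by -0.56, under the size limit (limma, adjusted p = 0.028).

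Other basement membrane genes were divided, as the collagens of that class were. Of 19 genes 18 were tested, 4 were higher and 5 lower in Merkel libraries, against 6.79% and 5.27% of all genes. The higher genes were the laminin chains Lamc3 (3.35) and Lama2 (3.27), the laminin linker Nid1 (1.68) and Frem1 (1.46), in log2 units (limma, adjusted p = 1.2e-06 to 3.2e-04). Lama2 averaged 9.40 ± 2.00 TPM in Merkel and 0.065 ± 0.020 TPM in basal libraries, and an antisense gene overlaps Lamc3. The lower genes were Fras1 (-1.89), a component of the epidermal basement membrane, Sparc (-1.47), a collagen-binding protein and the most abundant of the list, Hspg2 (-1.28), which encodes perlecan, Lama3 (-1.23), a chain of laminin 332, and Agrn (-1.02), with adjusted p = 2.8e-05 to 0.0013 (limma). Agrn missed the size limit under 6 of 18 alternatives and Hspg2 missed it against the first basal libraries alone. Of 16 fibril and elastic matrix genes 11 were tested, 5 were higher and 2 lower, against the same shares of all genes. Fbln2 (1.81), Fbn1 (1.43), Bgn (1.32), Eln (1.28) and Fbn2 (1.26), which encode fibulin, fibrillins, biglycan and elastin, were higher (limma, adjusted p = 5.6e-05 to 6.9e-04), and Bgn missed the size limit against the second basal libraries alone (0.93). Tnxb (-1.70), a tenascin of collagen fibrils, and Postn (-1.68), which averaged 150 ± 39.4 TPM in Merkel and 479 ± 73.3 TPM in basal libraries, were lower (limma, adjusted p = 1.2e-04 and 2.4e-04).

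The second and the first basal libraries, both labelled as basal keratinocytes, differed in several collagens. In a fit to these 6 libraries 19 collagen genes were tested, 4 were called higher in the second libraries, against 0.675% of all 13477 genes tested, and 1 was lower, against 3.67% of all genes, or 5 in all, against 4.35%. The median difference of the 19 genes was 0.43, and that of all genes was 0.06. All second libraries lay above all first for 8 of the 19 genes, against 17.3% of all genes, and below them for 2, against 10.1%. The higher genes, whose values are given above, were Col1a2 (1.47 ± 0.16, limma adjusted p = 0.0038), Col4a1 (1.47 ± 0.24, limma adjusted p = 0.013), Col14a1 (1.16 ± 0.26, limma adjusted p = 0.042) and Col4a2 (1.10 ± 0.26, limma adjusted p = 0.045). The lower gene was Col15a1 (-1.06 ± 0.23, limma adjusted p = 0.032). Col1a2 was called in all 15 alternatives. Without second basal library 3 it was the only collagen called, and Col4a1 then had an adjusted p of 0.068 (limma). Col4a2 was lost in 9 of 15 alternatives, Col14a1 in 7 of 15 and Col15a1 in 6 of 14. Col27a1 had a difference of 1.15 ± 0.28 and was not called (limma, adjusted p = 0.050), but it was called in 6 of 14 alternatives: both pseudocounts, quantile normalization, rescaling over protein-coding genes, the sample number as a block (limma, adjusted p = 0.018) and without second basal library 2 (limma, adjusted p = 0.011).

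**Figure D5:**
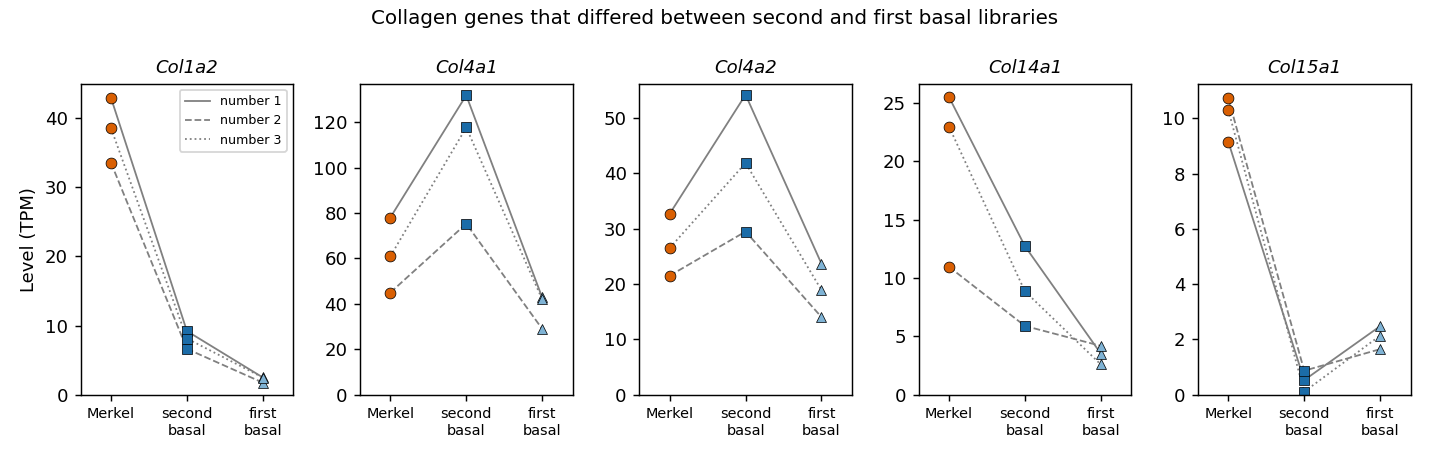
Levels (TPM) of the 5 collagen genes called between second and first basal libraries, with the Merkel library of the same sample number joined by a line. Second basal libraries stand above first basal libraries of every number for Col1a2, Col4a1, Col4a2 and Col14a1 and below them for Col15a1.

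Other transcripts differed between the second and first basal libraries too. The 6 melanocyte markers were all above in the second libraries, as were 17.3% of all tested genes, summing to 105 to 152 TPM there and 15.8 to 34.3 TPM in the first. The 5 macrophage markers, led by Csf1r, were all below, as were 10.1% of all tested genes, summing to 14.4 to 23.3 TPM in second and 129 to 375 TPM in first basal libraries. EGFP, the reporter of the sort, was 13.4 to 18.3 TPM in second and 1.73 to 3.72 TPM in first basal libraries, and 178 to 247 TPM in Merkel libraries. Dermal papilla markers summed to 0.52 to 1.36 TPM in second and 0.50 to 1.02 TPM in first basal libraries, and Pdgfra stayed at or below 0.17 TPM in both. The part of other cells in these collagen differences was not tested. Among the partner genes 58 were tested, 3 were called higher and 2 lower, against 0.675% and 3.67% of all genes, and the lower count was thus near the share over all genes. Fn1 (1.61), which encodes fibronectin, the peroxidasin gene Pxdn (1.21), whose product crosslinks type IV collagen, and Fbln2 (1.18) were higher in the second libraries (limma, adjusted p = 0.0067, 0.0036 and 0.0064). The collagen receptor gene Lair1 (-1.63) and Nid2 (-1.28) were lower (limma, adjusted p = 0.0050 and 0.011), and exons of Nid2 overlap the abundant gene Rtraf on the opposite strand. The Nid2 call was lost without second basal library 3 (limma, adjusted p = 0.063) and without first basal library 3 (limma, adjusted p = 0.055).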

How the data were processed

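Total RNA of sorted cells was made into libraries with a stranded kit and sequenced as read pairs, per the labels' protocols. Trimmomatic, STAR and RSEM and the build mm10 are named in the submitters' processing notes, and no annotation or strand setting is given in the sources used. The TPM values per gene are as deposited by the authors, in 1 table. TPM keeps no depth, so the reads behind a value are unknown and no counting error is given.

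Identifiers were matched without version to GENCODE M21 on the same build: 49412 of 49672 rows had a symbol, 43835 with the same version. Of the 42 collagen genes 12 share exon bases with another gene, and such values are uncertain where reads were divided. Tests were two-sided, with a variance trend and Benjamini-Hochberg adjustment over all tested genes, in limma 3.58.1 (R 4.3.3). Tables and plots were made with Python 3.11.15, pandas 2.3.3 and matplotlib 3.10.9. The procedure was tested on simulated data. The collagen genes, the partner and marker lists and the alternatives were chosen with earlier results of these data known. Named are the genes called in either comparison with their values, the most abundant gene of each class, the 4 called genes with the largest differences and the most abundant gene of each partner list, all genes of a count of 5 or fewer, and the most abundant and absent genes of each marker list. Pdgfra, Rgs5, EGFP and Dcn were named after their values were seen.

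Deviations of same-numbered libraries from their group means correlated at 0.39, 0.36 and 0.20 for numbers 1 to 3 between Merkel and basal values and at 0.50, 0.54 and 0.41 between second and first basal libraries, across genes. Between libraries of different numbers the correlations were -0.35 to 0.06 and -0.53 to 0.19. Deviations from a mean of 3 values are not free of each other, which limits what these correlations show. The numbers were taken to pair the samples, and a fit with the number as a block was an alternative. The main fits had no block, so their SE and p-values do not use this pairing. Other alternatives changed the pseudocount, the filter, the scaling, the basal libraries used and the variance trend, or left out a library.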

Additional observations from a re-analysis of the deposited data

Results flagged for a closer look

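The Merkel minus basal difference of 5 collagen genes depended on the basal libraries it was taken against, because the second and first basal libraries themselves differed by a test of that difference. The second minus first difference was 1.47 log2 units for Col1a2 and 1.47 for Col4a1, 1.10 for Col4a2, 1.16 for Col14a1 and -1.06 for Col15a1. The Merkel difference against the second and against the first basal libraries was 2.13 and 3.6 for Col1a2, -0.81 and 0.66 for Col4a1, -0.60 and 0.50 for Col4a2, 1.01 and 2.16 for Col14a1, and 2.91 and 1.85 for Col15a1. Summed macrophage markers were 14.4 to 23.3 TPM in second and 129 to 375 TPM in first basal libraries, and summed melanocyte markers 105 to 152 TPM in second and 15.8 to 34.3 TPM in first. Their part in these differences was not tested.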

How the results depend on the processing

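The collagen counts for Merkel against basal libraries stayed within 1.5 times the 17 calls in all 18 alternatives (15 to 17 when a library was left out). Median-ratio scaling moved the median difference of all genes to 0.05 and quantile normalization to -0.04. Collagen calls were then 13 higher and 2 lower under median-ratio scaling and 12 and 2 under quantile normalization, and all-gene calls under median-ratio scaling 1098 and 419, against 938 and 729. With a filter at 5 TPM 19 collagen genes were tested and 12 called, 8 higher and 4 lower, against 13 and 4 in the main fit. Of all 9864 genes then tested 935 were called, 486 higher and 449 lower. With a pseudocount of 0.1 TPM 2472 of all genes were called. With the sample number as a block (the pairing of samples) 17 collagen, 26 partner and 1719 of all genes were called, and 6 collagen genes and 640 of all genes between second and first basal libraries; Col27a1 alone among collagen genes and named partner genes changed its call. Second against first basal calls were less stable: 2 collagen genes without a filter, 2 with a filter at 5 TPM, 3 under median-ratio scaling (2 higher, 1 lower) and 1 to 6 when a library was left out, and 311 of all genes with a filter at 5 TPM and 332 to 674 when a library was left out.

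Genes that were not called changed sign as follows. Against the first basal libraries alone the Merkel difference was 0.66 for Col4a1, 0.50 for Col4a2, 0.27 for Col27a1 and 0.072 for Col8a1, and against the second alone it was -0.17 for Col5a2. Median-ratio scaling, quantile normalization and rescaling over protein-coding genes gave 0.15, 0.064 and 0.0070 for Col4a1 and 0.17, 0.13 and 0.029 for Col4a2. Leaving out a library gave -0.28 to 0.13 for Col4a1, -0.25 to 0.14 for Col4a2 and -0.089 to 0.34 for Col5a2. Between second and first basal libraries it gave -0.24 to 0.064 for Col3a1, -0.19 to 0.038 for Col4a5, -0.032 to 0.070 for Col18a1 and -0.0081 to 0.18 for Col12a1, and median-ratio scaling gave -0.020 for Col18a1. The causes were not tested. With 3 values a side and unknown depth, differences of genes near 1 TPM are the least certain, and an uncalled gene is not shown to be alike in both groups.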
